A study of Mus musculus with 46 samples.

Results

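The genes described here encode enzymes that write or erase histone and DNA modifications, together with ATP-dependent chromatin remodelers. They were chosen by symbol from the RNA count table of a study of mouse hypothalamic neurons. The table rows whose symbol begins with Hdac, Kdm, Kmt, Dnmt or Chd and a number, the sirtuins Sirt1 to Sirt7, Tet1 to Tet3, Ezh1 and Ezh2, the Setd and Setdb genes and the Smarc genes were taken. There were 85 such rows among 31854 in the table, and 81 had a mean over 1 CPM, the usual unit of reads scaled to the total of each library. The other 4, Dnmt3b, Dnmt3l, the antisense transcript Dnmt3aos and the row Setdb2-phf11c, were near zero in every library and were not tested.

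Acetyl groups on histone tails are removed by zinc-dependent HDACs and by NAD-dependent sirtuins. Methyl groups on histone lysines are added by members of the KMT, SETD and EZH families and removed by members of the KDM family, though not every member of these families acts on histones. Cytosine methylation is set by the DNMTs and oxidised by the TETs. CHD and SMARC proteins use ATP to slide, evict or restructure nucleosomes, and the SMARC genes code for subunits of the SWI/SNF (BAF) complexes, of ISWI complexes and of related SNF2-type proteins. In adult neurons these enzymes are known for their part in activity-dependent transcription and in the long-lasting state of chromatin.

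AgRP neurons of the arcuate nucleus drive feeding, and POMC neurons of the same nucleus restrain it. The study asked how the transcripts and the open chromatin of AgRP neurons differ between hunger states. RNA bound to ribosomes was pulled down (TRAP) from male NuTRAP mice, in which Cre under the control of Agrp (NuTRAP AgRP) or of Pomc (NuTRAP Pomc) switches on a GFP-tagged ribosomal protein and a tagged nuclear envelope. The values are therefore of ribosome-bound RNA in cells where the Cre driver has been active. The AgRP mice were C57BL/6J, 6 to 11 weeks old, and 4 arcuate nuclei were pooled for each sample. The labels attach the same age and pooling to the POMC samples, in a text that names only the AgRP mice. The methods of the study place the male mice of all its experiments on a C57BL/6J background. Fed mice ate ad libitum and received vehicle (PBS), fasted mice went 18 to 20 hours without food and received vehicle, and leptin mice were fasted for the same time and received leptin at 5 mg/kg intraperitoneally. Tissue was taken 3 hours after the injection. AgRP neurons had 3 fed, 4 fasted and 4 leptin RNA libraries, numbered 1, 3 and 4 in the fed state and 1 to 4 in the others, and POMC neurons had 2 libraries per state. Open chromatin was measured by ATAC-seq on sorted AgRP nuclei in 2 libraries per state.

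RNA libraries held 25581041 to 54511107 counts and ATAC-seq libraries 8263234 to 17190963. The lowest ATAC-seq total was that of fed number 1, and every other ATAC-seq library held 14324992 or more. The summed CPM of 6 AgRP neuron markers was 1656 to 6450 in the AgRP libraries and 110 to 202 in the POMC libraries, and that of 5 POMC neuron markers was 1703 to 3112 in the POMC libraries and 135 to 191 in the AgRP libraries, with no marker at 0. The AgRP libraries numbered 4 and the POMC libraries numbered 2 stood apart from the rest. Slc1a2, a glutamate transporter gene of astrocytes, took 1.93 to 2.36% of the counts in AgRP number 4 and 0.24 to 0.43% in the other AgRP libraries, and 5 astrocyte markers summed to 836 to 881 CPM against 391 to 616 CPM. In the same AgRP libraries, 5 oligodendrocyte markers summed to 693 to 768 CPM against 423 to 666 CPM, 5 tanycyte and ependymal markers to 79.1 to 122 CPM against 24.008 to 48.7 CPM, and 6 microglia markers to 37.8 to 41.4 CPM against 17.5 to 39.7 CPM. In POMC number 2, the astrocyte markers summed to 997 to 1135 CPM against 626 to 720 CPM and the oligodendrocyte markers to 708 to 929 CPM against 406 to 488 CPM. The sum of 4 endothelial markers overlapped between these libraries and the rest in both cell types. In bulk samples, fewer cells of a type and less RNA per cell cannot be told apart.

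Levels between genes were compared per length, as CPM per kb of exon. Hdac11, the only class IV deacetylase, was the highest of all 85 in AgRP neurons, at 110 ± 15.2 CPM per kb (SD, n = 11), and its lowest library lay above the highest library of the next gene. It was followed by Hdac3, the catalytic subunit of the NCoR and SMRT corepressor complexes, at 51.6 ± 7.06 CPM per kb. Hdac2 stood above its close relative Hdac1 in every AgRP library, by a ratio per length of 3.29 at the lowest, 4.00 at the median and 5.53 at the highest. Among the remodelers, Chd3, Chd5 and Chd4, the alternative ATPases of the NuRD complex, reached 49.9 ± 5.57, 42.5 ± 5.30 and 36.3 ± 4.99 CPM per kb. Smarcc2, a core BAF subunit, was at 47.3 ± 3.98 CPM per kb and Setd7, a lysine monomethyltransferase, at 42.8 ± 14.2 CPM per kb.

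Within families, relatives differed in level. Ezh1, the methyltransferase of PRC2 in non-dividing cells, was at 10.2 ± 0.940 CPM per kb in AgRP neurons, and Ezh2, its counterpart in dividing cells, at 0.536 ± 0.132. The ratio of Ezh1 to Ezh2 was 12.9 to 29.5 over the AgRP libraries and 17.8 to 41.3 over the POMC libraries. Dnmt1, the maintenance DNA methyltransferase, was above Dnmt3a, the de novo enzyme of neurons, in every AgRP library, with a ratio of Dnmt3a to Dnmt1 of 0.25 to 0.44. The de novo enzyme Dnmt3b and its cofactor Dnmt3l were at 0.0390 and 0.0364 CPM per kb. The Y-linked demethylase Kdm5d was 3.68 to 6.11 times below its X-linked relative Kdm5c in these males. The lowest genes above 1 CPM were the pseudogene Smarca5-ps (0.453 CPM per kb), which may share reads with Smarca5, the testis-enriched demethylase Kdm4d (0.475) and Ezh2. The median over the 81 genes was 7.44 CPM per kb, beside 7.48 for all genes tested. In the order of levels, 81 of the 84 neighbouring pairs had overlapping AgRP libraries, so that most neighbours in the order cannot be separated.

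**Figure D1:**
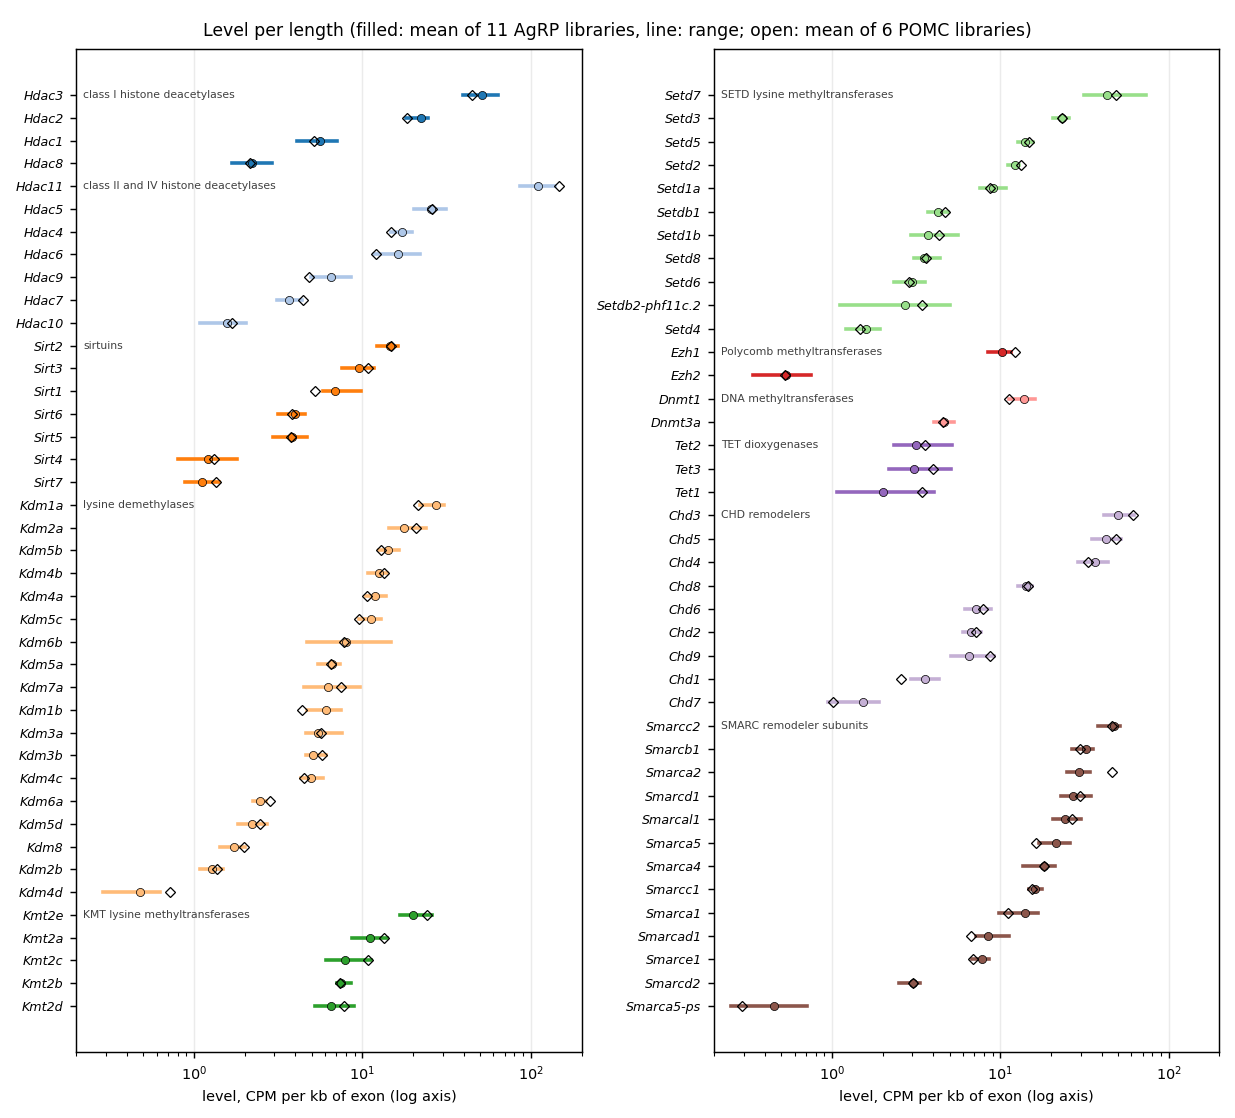
Level of each of the 81 genes over 1 CPM in CPM per kb of exon on a log axis, grouped by role, with the mean of 11 AgRP libraries as a filled circle, their range as a line and the mean of 6 POMC libraries as an open diamond. Hdac11 is highest at 110 CPM per kb and Smarca5-ps lowest at 0.453 CPM per kb, and the Smarca2 diamond lies to the right of its AgRP range.

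Fasted and fed AgRP neurons were compared first. Calls were made with edgeR's quasi-likelihood test at a Benjamini-Hochberg false discovery rate (FDR) under 0.05 over all genes tested and an absolute log2 fold change over 0.5. In fasted against fed AgRP neurons, 1 of the 81 genes was called, beside 3.89% of the 13401 genes tested. At an FDR under 0.05 and any fold there were 3, beside 5.38% of all genes, and at an unadjusted p under 0.05 there were 14 (9 higher and 5 lower when fasted), beside 19.3%. With the library number as a block, 18 of the 81 genes passed the FDR at any fold, beside 24.5% of all genes. The median log2 fold change was 0.04 over the 81 genes and 0.02 over all genes, and 79 of the 81 fold changes lay within 0.5 of zero on the log2 scale. The median standard error was 0.118 on that scale.

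The gene called was the row named Setdb2-phf11c.2. SETDB2 is a SET domain protein placed among the H3K9 methyltransferases. In CPM scaled by TMM, this row was at 9.09, 10.5 and 7.31 in the fed AgRP libraries, at 28.9, 22.2, 29.9 and 23.2 in the fasted ones and at 12.4, 13.4, 13.7 and 6.59 after leptin. All fasted libraries lay above all fed and all leptin libraries, while fed and leptin libraries overlapped. The log2 fold change was 1.54 for fasted against fed (SE 0.231, edgeR FDR 0.00366) and -1.18 for leptin against fasted (SE 0.206, edgeR FDR 0.0116). Both comparisons use the same 4 fasted libraries. Leptin against fed gave 0.36 (SE 0.224, edgeR FDR 0.385).

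In POMC neurons this row was at 13.6 and 15.9 CPM in the fed libraries, at 28.4 and 15.3 in the fasted ones and at 30.4 and 18.1 after leptin. The library numbered 2 of each fasted and leptin pair was the lower one, and the fasted libraries overlapped both other states. Both leptin libraries lay above both fed ones. The difference between AgRP and POMC neurons was 0.97 on the log2 scale in the effect of fasting (95% interval 0.03 to 1.91, edgeR FDR 0.532) and -1.33 in the effect of leptin (95% interval -2.24 to -0.41, edgeR FDR 0.911), so neither difference passed the correction over all genes.

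What the row counts is not certain. In the RefSeq annotation of GRCm38 (mm10), Setdb2 lies on the minus strand at chr14:59402009-59440880, Phf11c at chr14:59380833-59393512, and a read-through gene, Gm45935, spans both at chr14:59380833-59440880. The row's name joins both genes and its exon length is 5929 bases, so its counts cannot be assigned to the Setdb2 exons alone. The other row with the joined name, Setdb2-phf11c, had 0 to 9 counts per library. The upstream part of the Setdb2 promoter is shown because this is the gene of the set with the largest RNA change in AgRP neurons. It is the 250 bases before the RefSeq start, on the minus strand, at chr14:59440881-59441130, with the letters of the NF-Y motif (CCAAT, on either strand) in capitals.

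Setdb2 upstream: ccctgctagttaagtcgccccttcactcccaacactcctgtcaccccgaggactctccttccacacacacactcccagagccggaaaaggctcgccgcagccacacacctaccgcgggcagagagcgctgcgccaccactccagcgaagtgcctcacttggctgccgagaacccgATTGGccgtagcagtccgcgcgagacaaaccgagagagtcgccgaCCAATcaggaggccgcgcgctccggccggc

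CCAAT occurs in 37.4% of the 32851 promoter windows of 300 bases in the RefSeq table, and a match of letters is not a measured site. The ATAC-seq peak over this start, chr14:59440575-59441413, was at 54.6 and 45.8 CPM in fed, 45.5 and 35.9 in fasted and 41.8 and 37.5 in leptin libraries. It was called in neither comparison, with a log2 fold change of -0.29 for fasted against fed (SE 0.175, edgeR FDR 0.219) and -0.04 for leptin against fasted (SE 0.173, edgeR FDR 0.957).

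Among the CHD remodelers, 2 genes passed the FDR at any fold when fasted was compared with fed. Chd7, which codes for the chromodomain helicase mutated in CHARGE syndrome, was at 16.5, 16.5 and 13.4 CPM in fed, at 22.4, 18.7, 21.7 and 23.8 CPM in fasted and at 25.5, 26.3, 27.1 and 24.5 CPM in leptin libraries. The 3 states did not overlap, with fed lowest and leptin highest. The log2 fold change was 0.49 for fasted against fed (SE 0.106, edgeR FDR 0.0221), just under the fold required, and 0.25 for leptin against fasted (SE 0.0970, edgeR FDR 0.370). With the library number as a block, the first became 0.51 (edgeR FDR 0.00377) and was called, so that the block gave 2 calls among the 81 genes, beside 6.94% of all genes. It was also called without fasted number 2 (0.56, edgeR FDR 0.0159) or without fed number 3 (0.55, edgeR FDR 0.0453).

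Chd6, a relative of Chd7, moved the other way. It was at 162, 147 and 156 CPM in fed, at 124, 132, 125 and 117 CPM in fasted and at 132, 113, 118 and 127 CPM in leptin libraries, and no fasted or leptin library reached a fed one. The log2 fold change was -0.30 for fasted against fed (SE 0.0777, edgeR FDR 0.0468) and -0.33 for leptin against fed (SE 0.0777, edgeR FDR 0.0268), below the fold required for a call. Chd5, the neuronal NuRD ATPase, was at 437 to 491 CPM in fed and at 368 to 412 CPM in fasted libraries, with a log2 fold change of -0.29 (SE 0.0983, edgeR FDR 0.122).

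The deacetylases held no call in fasted against fed, in either class. Hdac9, a class IIa deacetylase that represses MEF2 targets, was at 77.7, 80.2 and 72.2 CPM in fed, at 124, 92.4, 101 and 97.1 CPM in fasted and at 119, 86.7, 116 and 79.7 CPM in leptin libraries. The fasted libraries lay above the fed ones and overlapped the leptin ones. Its log2 fold change for fasted against fed was 0.44 (SE 0.140, edgeR FDR 0.101). Hdac3 went from 83.4 to 101 CPM in fed to 107 to 133 CPM in fasted libraries, a log2 fold change of 0.37 (SE 0.104, edgeR FDR 0.0690). With the library number as a block, both passed the FDR (0.00184 and 0.00135) at a fold below the one required.

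Of the 18 demethylases none was called, and several shifts were small with libraries that did not overlap. Kdm5a, Kdm5c and Kdm5d remove methyl groups from H3K4. Kdm5a was at 95.6 to 101 CPM in fed and 75.0 to 89.7 CPM in fasted libraries (log2 fold change -0.27, SE 0.0919, edgeR FDR 0.129), and Kdm5c was at 105 to 116 and 120 to 134 CPM (0.20, SE 0.0747, edgeR FDR 0.156). Kdm4d was the only demethylase beyond 0.5, at 0.54 (SE 0.194, edgeR FDR 0.152), with 0.813 to 1.32 CPM in fed and 1.49 to 1.76 CPM in fasted libraries. Over all 81 genes, 18 had fed and fasted libraries that did not overlap, 9 higher and 9 lower when fasted, beside 17.3% of all genes. The 5 KMT genes, both EZH genes, Dnmt1 and Dnmt3a, the 3 TET genes and the 13 SMARC genes had no call and log2 fold changes between -0.23 and 0.26.

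**Figure D2:**
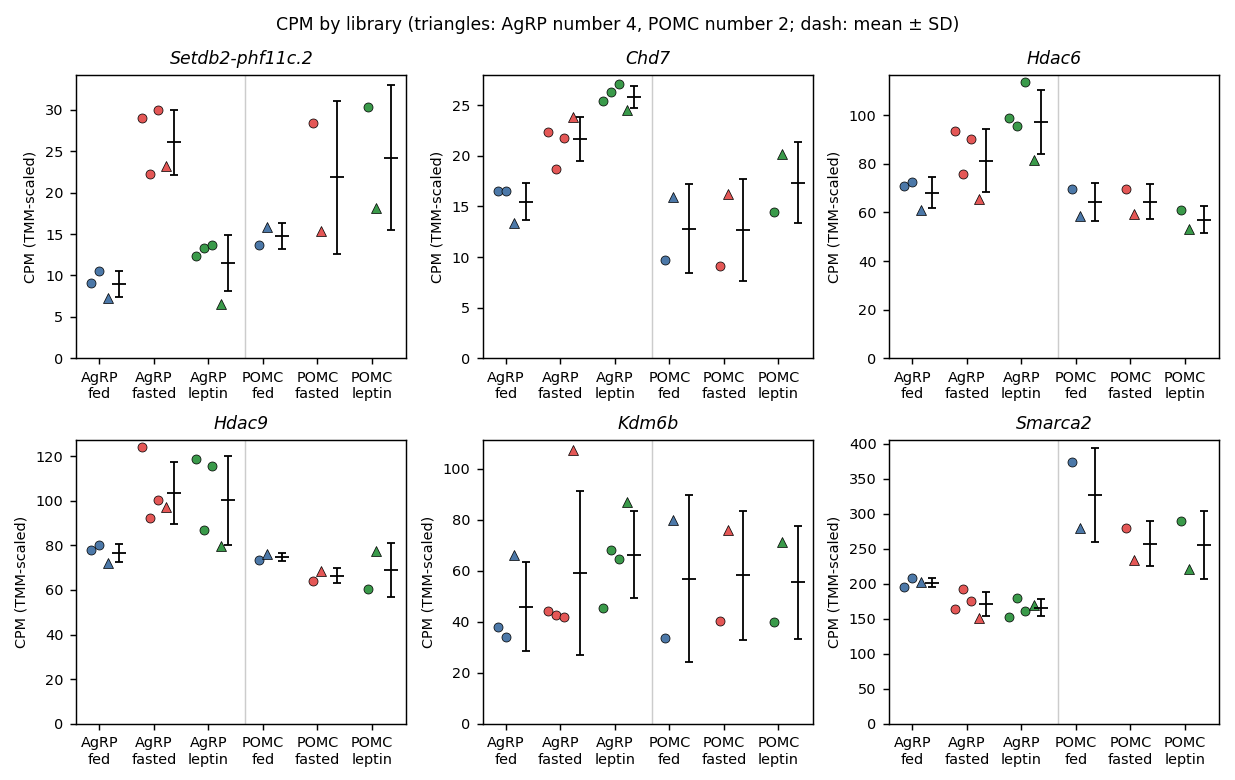
CPM (TMM-scaled) of Setdb2-phf11c.2, Chd7, Hdac6, Hdac9, Kdm6b and Smarca2 in each of the 17 RNA libraries by cell type and state, with a point per library, triangles for the libraries of high Slc1a2 share (AgRP number 4, POMC number 2), and a dash with an error bar beside each group for its mean ± SD. Setdb2-phf11c.2 sits at 22.2 to 29.9 CPM in fasted AgRP libraries and at 6.59 to 13.7 CPM in the fed and leptin ones. Within each state, Kdm6b is highest in the library numbered 4 (AgRP) or 2 (POMC).

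In leptin against fasted AgRP neurons, 1 of the 81 genes was called, the fall of Setdb2-phf11c.2 given above, beside 1.83% of all genes tested. Without a block, no other gene of the set passed the FDR, beside 2.30% of all genes at any fold. With the library number as a block 1 was called too, beside 2.91%, and 8 passed the FDR at any fold, beside 7.83%. Those were Setdb2-phf11c.2, Hdac4, Hdac5, Hdac6, Hdac7, Sirt1, Kdm3a and Dnmt1, with block FDRs of 0.00471 for Hdac4, 0.0103 for Hdac7, 0.0106 for Sirt1 and 0.0124 for Kdm3a. At an unadjusted p under 0.05 there were 10 (8 higher and 2 lower after leptin), beside 9.13%, and 8 had libraries that did not overlap, beside 5.60%. Without the block, the nearest to passing the FDR was Hdac7, a class IIa deacetylase. It was at 21.7, 20.5, 20.1 and 18.5 CPM in fasted and 16.9, 17.4, 15.9 and 15.4 CPM in leptin libraries, which did not overlap, with a log2 fold change of -0.30 (SE 0.0689, edgeR FDR 0.0504). Hdac4, of the same class, was at 122 to 138 CPM in fasted and 147 to 162 CPM in leptin libraries (0.27, SE 0.0676, edgeR FDR 0.0821). Kdm3a, an H3K9 demethylase, was at 32.3 to 35.8 and 36.4 to 50.8 CPM (0.35, SE 0.0888, edgeR FDR 0.0834). Sirt1, the NAD-dependent deacetylase studied as a nutrient sensor, was at 22.9 to 27.6 and 27.5 to 38.3 CPM, with 1 fasted library within the leptin range (0.34, SE 0.102, edgeR FDR 0.176).

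Leptin-treated fasted mice were also compared with fed mice. There, 2 of the 81 genes were called and both were higher, beside 5.48% of all genes tested. Chd7 rose by 0.75 on the log2 scale (SE 0.107, 95% interval 0.51 to 0.98, edgeR FDR 0.00244) and was called in all 12 alternative analyses of this comparison. Hdac6, the cytoplasmic deacetylase that acts on tubulin, was at 70.9, 72.5 and 60.8 CPM in fed and 98.6, 95.3, 114 and 81.4 CPM in leptin libraries, which did not overlap. It rose by 0.52 (SE 0.128, edgeR FDR 0.0308), and this call was kept in 4 of the 12 alternatives. It was lost without any 1 of the libraries fed number 1, 3 or 4 or leptin number 1, 2 or 3 (FDR 0.0603 to 0.133), and kept without leptin number 4.

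At an FDR under 0.05 and any fold, 6 genes passed, beside 8.89% of all genes. The others were Chd6, the H3K4 demethylase Kdm5b (0.26, SE 0.0641, edgeR FDR 0.0301), Kdm3a (0.38, SE 0.0966, edgeR FDR 0.0341) and the H3K4 methyltransferase Setd1a (0.33, SE 0.0861, edgeR FDR 0.0395). Kdm5b was at 96.1 to 103 CPM in fed and 112 to 127 CPM in leptin libraries, and Setd1a at 57.8 to 65.7 and 72.4 to 82.5 CPM. The 17 genes with an unadjusted p under 0.05 (10 higher and 7 lower) stood beside 23.1% of all genes, and the 18 whose libraries did not overlap beside 20.2%. With the library number as a block 4 genes were called, beside 8.57% of all genes, and 23 passed the FDR at any fold, beside 30.0%. The block added Kdm6b, an H3K27 demethylase, at 0.62 (edgeR FDR 0.0111) and the mitochondrial sirtuin Sirt4 at -0.62 (edgeR FDR 0.0106). Without the libraries numbered 4, the same 4 genes were called.

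Kdm6b illustrates the spread between the library numbers. Without the block its log2 fold change for leptin against fed was 0.54 (SE 0.388, edgeR FDR 0.465). It was at 37.8, 34.0 and 65.98 CPM in fed, 44.0, 42.8, 41.9 and 107 CPM in fasted and 45.5, 68.0, 64.6 and 87.0 CPM in leptin libraries, with library number 4 highest in every state. In POMC neurons the library numbered 2 was the higher one in every state, at 71.2 to 79.9 CPM against 33.7 to 40.3 CPM. Tet1 showed the widest such gap. It was at 47.1, 58.0 and 56.7 CPM in the AgRP libraries numbered 4 and at 15.5 to 32.2 CPM in the other 8. Over the 81 genes, 25 had all libraries numbered 4 outside the range of the other AgRP libraries, 15 above and 10 below, beside 24.0% of 13435 genes. The higher ones included all 3 TET genes, Setd7, Kmt2a, Kmt2c, Kmt2d and Kmt2e. These are the libraries with the higher Slc1a2 share and the higher astrocyte, oligodendrocyte and tanycyte and ependymal marker sums, whose part in these differences was not tested.

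**Figure D3:**
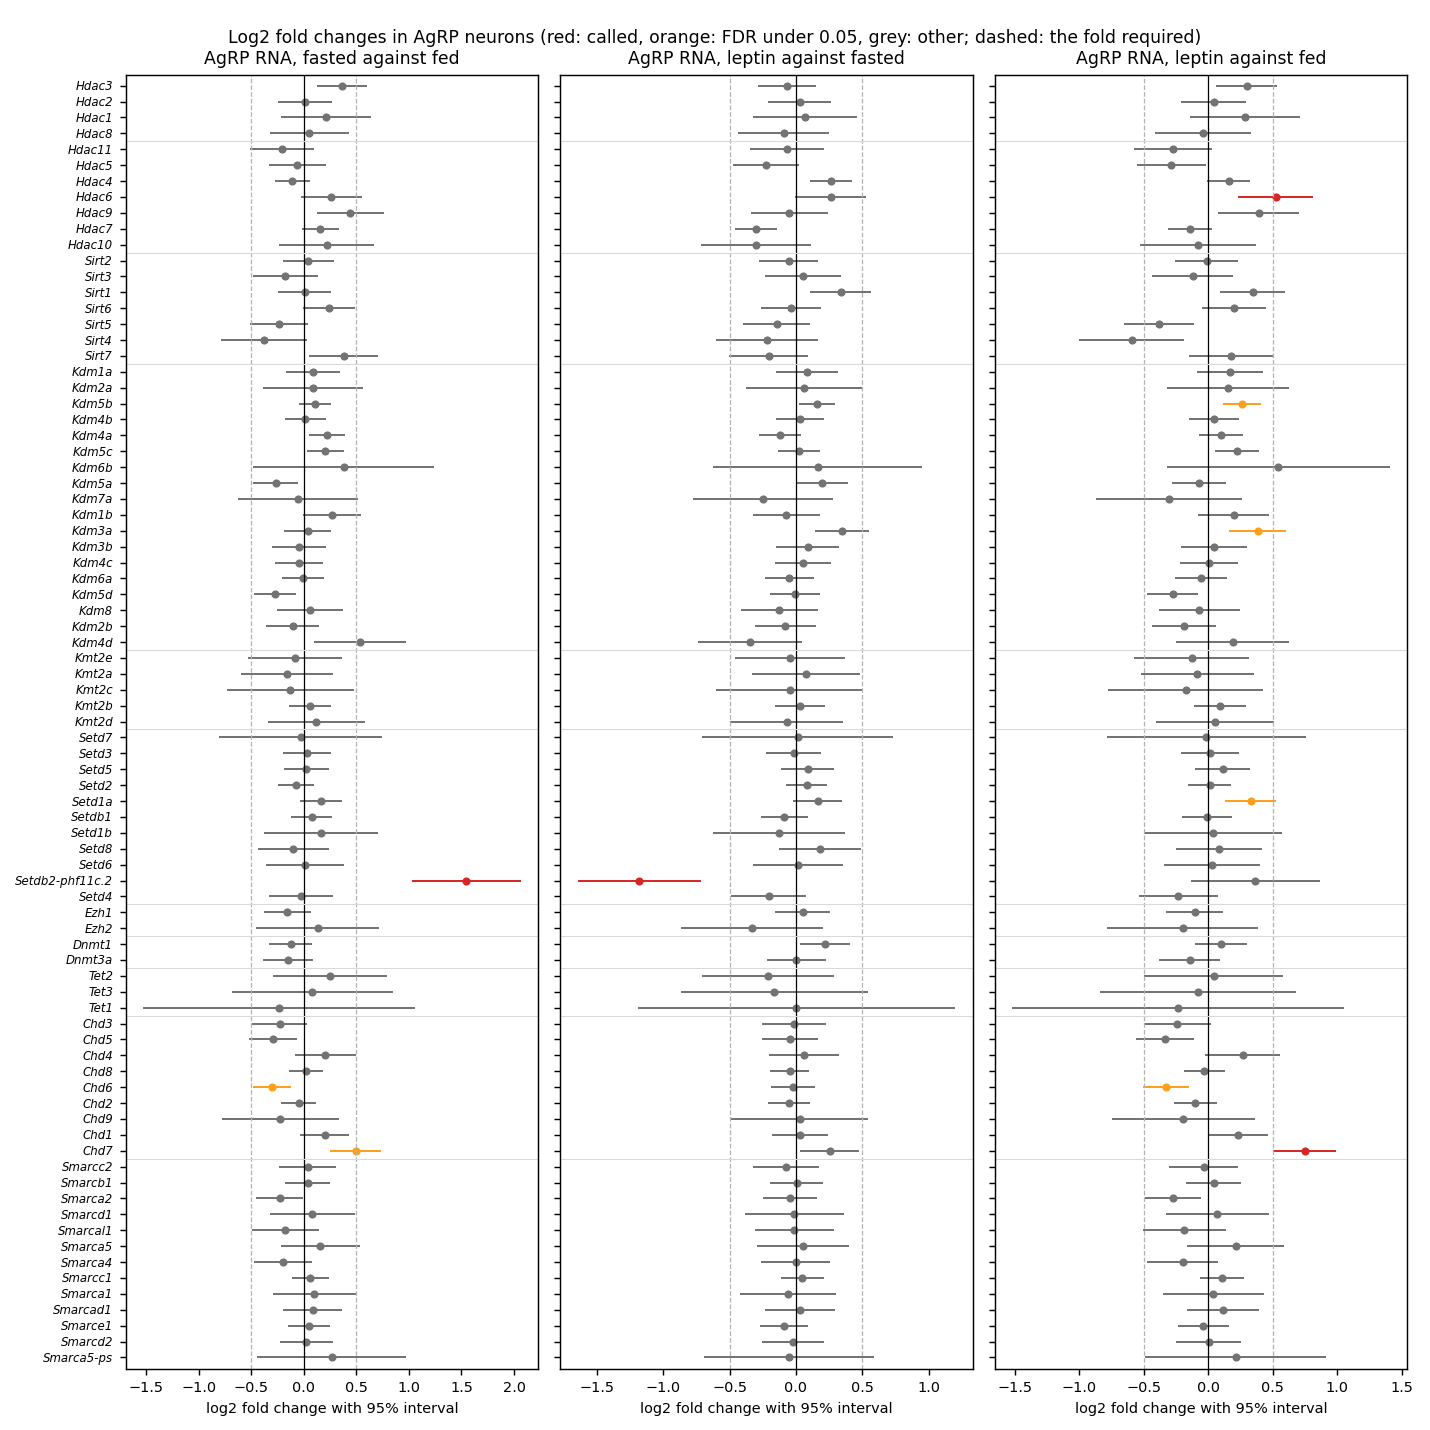
Log2 fold change with its 95% interval for every tested gene in fasted against fed, leptin against fasted and leptin against fed AgRP neurons, by role, from the edgeR fit, with called genes in red, genes at an FDR under 0.05 only in orange and dashed lines at 0.5 and -0.5. Setdb2-phf11c.2 lies at 1.54 and -1.18 in the first 2 panels, and Chd7 and Hdac6 at 0.75 and 0.52 in the third, while most intervals cross zero.

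POMC neurons held no call among these genes. In fasted against fed and in leptin against fasted POMC neurons, 0 of the 81 genes were called by edgeR, beside 0 of the 13412 genes tested, and 0 had an unadjusted p under 0.05, beside 2.10% and 1.13% of all genes. DESeq2 called 0 of the 81 in both, and the edgeR fit with the library number as a block called 0, beside 0.0224% and 0.0596% of all genes. Libraries of the compared states did not overlap for 19 of the 81 genes in fasted against fed, beside 26.0%, and for 12 in leptin against fasted, beside 17.7%. With 2 libraries per state, the median standard error of a log2 fold change was 0.171, against 0.118 in AgRP neurons for fasted against fed. The fold changes furthest from zero for fasted against fed were Kdm4d (0.68, SE 0.318), Setdb2-phf11c.2 (0.57, SE 0.376) and the mitochondrial desuccinylase Sirt5 (-0.42, SE 0.191). Chd7 differed by 0.44 (SE 0.373) for leptin against fasted. The tests of the difference in effect between AgRP and POMC neurons called 0 of the 81 genes for fasting, beside 0.164% of all genes, and 0 for leptin, beside 0.0819%. At an unadjusted p under 0.05 there were 5 for fasting, beside 8.96%, and 1 for leptin, beside 2.90%. Apart from Setdb2-phf11c.2, these were Kdm5a, Hdac9, Chd6 and Kdm5d, all for fasting. The fasting effect on Kdm5a was 0.50 lower on the log2 scale in AgRP neurons (SE 0.142, edgeR FDR 0.203) and that on Hdac9 0.60 higher (SE 0.239, edgeR FDR 0.433).

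Between the cell types, Smarca2 had the only call that held in every alternative analysis. SMARCA2 (BRM) and SMARCA4 (BRG1) are the alternative ATPases of the BAF complex. Smarca2 was at 195, 208 and 202 CPM in fed, 164, 192, 176 and 151 CPM in fasted and 152, 180, 161 and 170 CPM in leptin AgRP libraries, and at 374 and 280, 280 and 235, and 289 and 221 CPM in the POMC libraries of the same states. Every POMC library lay above every AgRP library. Over the mean of the 3 states the AgRP level was lower by a log2 fold change of -0.64 (SE 0.0817, edgeR FDR 5.23e-05), called in all 21 alternatives. Per length, Smarca2 exceeded Smarca4 1.29 to 1.84 times in AgRP and 2.38 to 2.72 times in POMC libraries, with no overlap.

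Over the mean of the 3 states, 5 of the 81 genes were called between AgRP and POMC neurons, beside 13.0% of the 13435 genes tested, and 24 passed the FDR at any fold, beside 35.5%. At an unadjusted p under 0.05 there were 37, of which 19 were higher and 18 lower in AgRP neurons, beside 46.4%. Chd7 (0.54, SE 0.133, edgeR FDR 0.00669) and Smarca5-ps (0.61, SE 0.204, edgeR FDR 0.0312) were higher in AgRP neurons. Smarca2, Kdm4d (-0.59, SE 0.132, edgeR FDR 0.00367) and Setdb2-phf11c.2 (-0.51, SE 0.175, edgeR FDR 0.0357) were lower. For Setdb2-phf11c.2 this held in the fed and leptin states, where every AgRP library lay below the POMC libraries of the same state. In the fasted state the cell types overlapped, at 22.2 to 29.9 CPM in AgRP and 28.4 and 15.3 CPM in POMC libraries. With scaling by library size alone the split was 4 higher and 2 lower in place of 2 and 3. Only Smarca2 among the 5 had libraries that did not overlap. Together with Ezh1, Kdm1b and Chd1 that made 4 of the 81, beside 7.00% of all genes. Ezh1 was lower in AgRP neurons (51.4 to 70.7 against 71.5 to 77.4 CPM), and the H3K4 demethylase Kdm1b (36.7 to 58.6 against 32.0 to 36.2 CPM) and the remodeler Chd1 (26.0 to 38.4 against 20.1 to 25.02 CPM) were higher.

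The call of Chd7 was lost without POMC fasted number 1, fed number 1 or leptin number 1 (0.42 to 0.47). That of Kdm4d was lost without POMC fasted number 1 (-0.48), and that of Smarca5-ps without AgRP fed number 1 or any 1 of the 6 POMC libraries. That of Setdb2-phf11c.2 was lost without AgRP fasted number 2 or 4, fed number 1 or 4 or leptin number 4, or without POMC fasted number 1, fed number 2 or leptin number 1 (-0.34 to -0.51). Without the libraries of high Slc1a2 share, 7 genes were called, 3 higher and 4 lower. The astrocyte markers summed to 391 to 881 CPM in the AgRP and 626 to 1135 CPM in the POMC libraries, and their part in these differences was not tested. In fed mice alone, 3 AgRP against 2 POMC libraries, 0 of the 81 genes were called by edgeR, beside 2.17% of 13453 genes, and 8 had an unadjusted p under 0.05, beside 13.4%. The libraries of 19 genes did not overlap there, 12 higher and 7 lower in AgRP neurons, beside 30.2%. The difference in Smarca2 was -0.70 there (SE 0.152, edgeR FDR 0.0948), and DESeq2 called 2 genes, both lower in AgRP neurons.

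**Figure D4:**
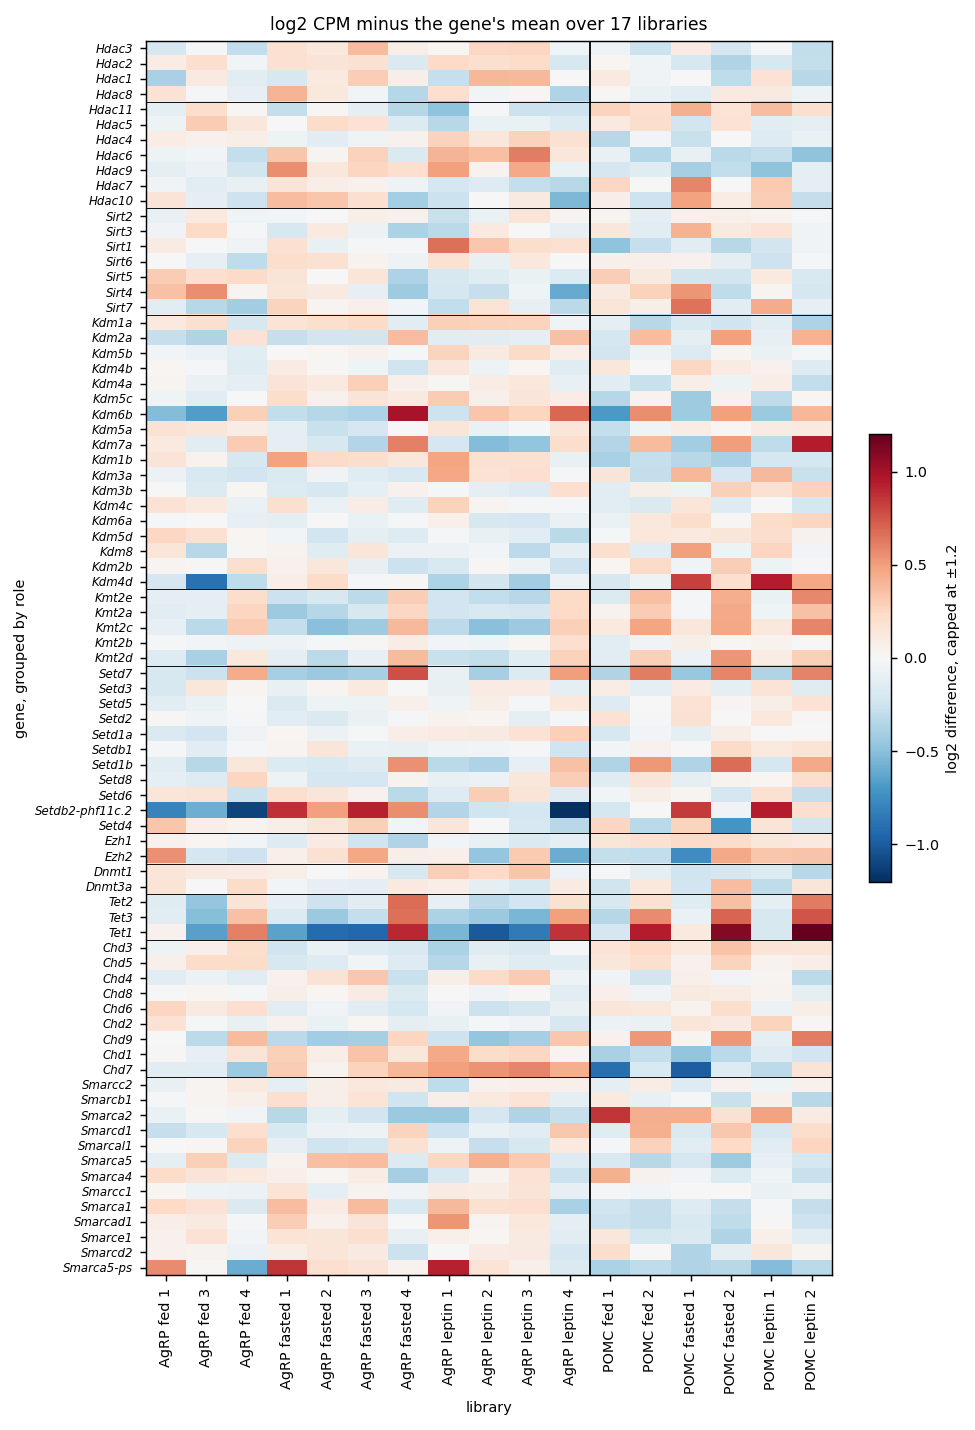
Log2 CPM of each tested gene minus its mean over the 17 RNA libraries, with genes as rows grouped by role, libraries as columns, and a line between the 11 AgRP and 6 POMC libraries. The AgRP columns numbered 4 and the POMC columns numbered 2 stand out in the TET rows and in Kmt2a, Kmt2c, Kmt2d and Kmt2e, but not in Kmt2b. In the AgRP libraries Tet1 is at 47.1 to 58.0 CPM in those numbered 4 against 15.5 to 32.2 CPM in the others.

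Open chromatin at the start sites of these genes was measured in AgRP nuclei. ATAC-seq peaks within 1 kb of a RefSeq transcript start of a gene of the set were taken, and 132 such peaks of 82 rows passed the filter of 1 CPM. In fasted against fed AgRP nuclei, 15 were called, 8 opened and 7 closed, beside 9.09% of the 19256 peaks near any start site and 27.0% of all 102237 peaks. With scaling by library size alone the split was 8 opened and 3 closed. The median log2 fold change was -0.19 over the 132 peaks and -0.21 over all peaks near start sites.

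The 7 opened peaks described here lay at Tet3, Kdm5c, Hdac4, Dnmt1 and Kdm6b. Only those at Kdm6b overlapped a start site. Those at Tet3 and Kdm5c lay 963 and 903 bases from the nearest start site of the gene. The distances were 654 and 854 bases at Hdac4 and 169 at Dnmt1. No peak over a start site of Tet3, Kdm5c, Hdac4 or Dnmt1 was called. At Tet3 the peak chr6:83442641-83442874 was at 3.65 and 1.97 CPM in fed and 11.1 and 12.5 CPM in fasted libraries (log2 fold change 2.17, SE 0.368, edgeR FDR 0.000312). At Kdm5c the peak chrX:152234130-152234480 was at 1.26 and 3.00 CPM in fed and 9.63 and 8.21 CPM in fasted libraries (1.93, SE 0.395, edgeR FDR 0.00138).

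Hdac4 had 2 opened peaks, chr1:92048933-92049425 (1.69, SE 0.355) and chr1:92050933-92051490 (1.31, SE 0.321). The peak at Dnmt1 (1.68, SE 0.488) rested on 5 and 23 reads in the fed libraries and was not called without fed number 1. Kdm6b had the opened peak with the most reads, chr11:69410219-69412051 over its start site. It was at 30.3 and 38.8 CPM in fed, 70.1 and 70.5 CPM in fasted and 78.9 and 58.3 CPM in leptin libraries, a log2 fold change of 1.01 for fasted against fed (SE 0.172, edgeR FDR 0.000327). Its smaller neighbour chr11:69409395-69410017 changed by 0.74 (SE 0.253), a call lost without fed number 1 or 2 or fasted number 1.

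The closed peaks were at Hdac2, Sirt1, the H3K27 demethylase Kdm6a, Hdac9, Chd8, Kdm4c and Smarcad1. Their log2 fold changes were small, between -0.50 and -0.65. These are peaks and not genes, and a gene can hold several. At Hdac2 the peak was at 109 and 87.8 CPM in fed and 69.5 and 64.4 CPM in fasted libraries (-0.55, SE 0.136). All 7 closed peaks overlapped a start site. Each closed call was lost without 1 or more of the 4 fed and fasted libraries, and 10 to 16 of the 132 peaks were called when each library was left out in turn.

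The central stretches of 3 of the opened peaks are shown because they hold the AP-1 motif (TGANTCA, on either strand), whose letters are in capitals. They are on the plus strand of GRCm38 (mm10), at chr6:83442641-83442874, chrX:152234155-152234454 and chr1:92051062-92051361, each within the gene named. The Tet3 window overlaps an exon of the noncoding gene B230319C09Rik, and the others hold no RefSeq exon.
Tet3 opened: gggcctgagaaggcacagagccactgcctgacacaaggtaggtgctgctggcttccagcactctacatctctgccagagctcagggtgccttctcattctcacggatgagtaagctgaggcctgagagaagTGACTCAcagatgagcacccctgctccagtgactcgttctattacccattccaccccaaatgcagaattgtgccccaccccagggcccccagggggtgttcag
Kdm5c opened: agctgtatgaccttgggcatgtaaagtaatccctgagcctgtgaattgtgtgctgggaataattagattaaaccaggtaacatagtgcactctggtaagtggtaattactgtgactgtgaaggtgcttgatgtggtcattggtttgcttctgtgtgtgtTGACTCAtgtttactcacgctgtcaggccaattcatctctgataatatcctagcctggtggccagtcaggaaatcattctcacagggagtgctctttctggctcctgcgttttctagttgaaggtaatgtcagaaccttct
Hdac4 opened: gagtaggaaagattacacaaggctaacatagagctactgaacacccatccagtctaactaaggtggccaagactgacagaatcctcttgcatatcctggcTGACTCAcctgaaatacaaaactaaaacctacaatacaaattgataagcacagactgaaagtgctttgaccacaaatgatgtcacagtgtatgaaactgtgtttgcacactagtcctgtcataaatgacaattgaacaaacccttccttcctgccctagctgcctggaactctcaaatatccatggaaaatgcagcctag

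The AP-1 letters occurred in the central 300 bases of 3 of the 7 opened peaks described and 0 of the 7 closed peaks. Those 3 overlapped no start site of the gene named, whereas all 7 closed peaks overlapped one, so the sets differ in position. The same letters occurred in 30.1% of all 123663 deposited peaks and in 11.4% of the 132 peaks near these genes. The SP and KLF motif (GGGCGG, on either strand) occurred in 2 of the 7 opened and 5 of the 7 closed peaks, in 57.6% of the 132 and in 12.3% of all peaks. The GC content of the 7 opened windows was 42.0 to 60.7% and that of the 7 closed windows 60.3 to 80.0%. These are matches of letters in a fixed window and not measured binding.

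Leptin moved 1 of the 132 peaks against the fasted state, beside 0.680% of the peaks near any start site and 3.08% of all peaks. A peak at Hdac7, chr15:97812033-97812660, which lay 405 bases from the nearest start site of the gene, closed. It was at 22.8 and 25.1 CPM in fed, 21.7 and 14.7 CPM in fasted and 10.3 and 5.49 CPM in leptin libraries, and both leptin libraries lay below all others (log2 fold change -1.23, SE 0.290, edgeR FDR 0.0198). The call was lost without fasted number 1 (-0.92, edgeR FDR 0.337) or leptin number 2 (-0.82, edgeR FDR 0.477). No peak over a start site of Hdac7 was called. The RNA of Hdac7 differed by -0.30 in the same comparison and was not called. For the genes of the 7 opened peaks described, the log2 fold change of the RNA for fasted against fed was 0.38 at Kdm6b (SE 0.386), 0.20 at Kdm5c (SE 0.0747), 0.08 at Tet3 (SE 0.342), -0.11 at Hdac4 (SE 0.0729) and -0.12 at Dnmt1 (SE 0.0884), and none of these was called.

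**Figure D5:**
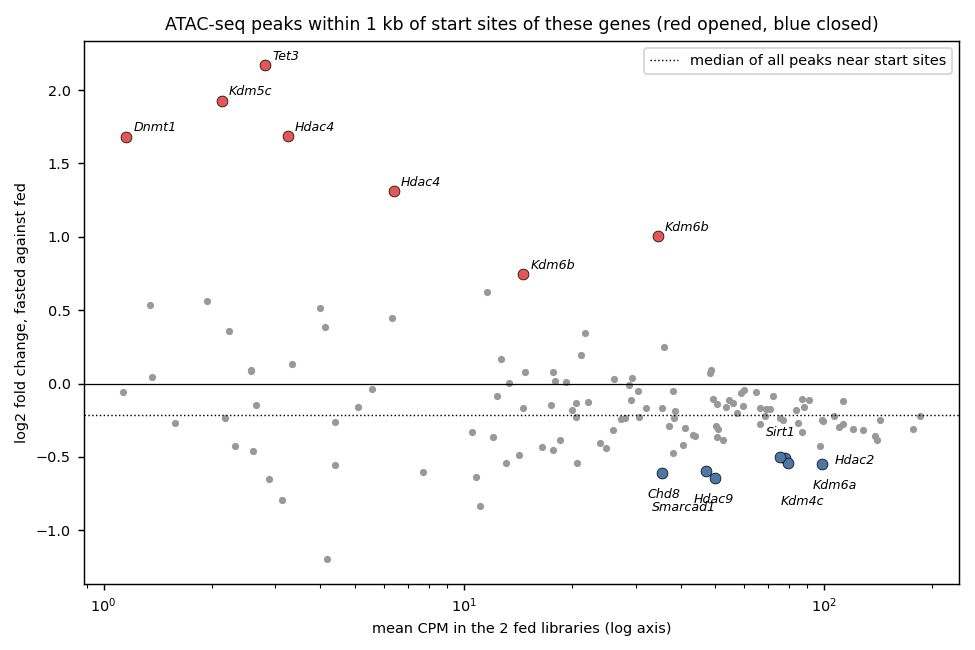
Log2 fold change of ATAC-seq signal, fasted against fed, for the peaks within 1 kb of a start site of these genes, 1 opened peak left out, against their mean CPM in the 2 fed libraries on a log axis, with opened peaks in red and closed peaks in blue. The opened peaks at Tet3 and Kdm5c lie at 2.17 and 1.93 among the weakest fed signals, and the closed peaks lie between -0.50 and -0.65 at higher fed signal.

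Chromatin regulators with other symbols, 110 of which were tested from a fixed list of readers, writers, erasers and complex subunits, were tested in the same fits. In fasted against fed AgRP neurons, 2 of the 110 rose, beside 3.89% of all genes called, the demethylase Phf8 (0.54, SE 0.0882, edgeR FDR 0.00581) and the histone chaperone Rbbp7 (0.95, SE 0.173, edgeR FDR 0.0101). In leptin against fasted neurons 3 of the 110 were called, beside 1.83% of all genes. Jmjd1c, a relative of the Kdm3 demethylases (0.77, SE 0.0785, edgeR FDR 0.000535), and Gadd45g, a stress-induced gene linked to DNA demethylation (1.06, SE 0.184, edgeR FDR 0.0114), rose, and Jarid2, a PRC2 partner (-0.53, SE 0.0640, edgeR FDR 0.00130), fell. In leptin against fed neurons 4 of the 110 rose and 1 fell, beside 5.48% of all genes.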

How the data were processed

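The members and lists were chosen with earlier results of these data known. Per the labels and the methods of the study, the authors aligned TRAP RNA reads with HISAT2, assigned them to genes with featureCounts on GRCm38 (mm10) annotation altered to limit overlap, and deposited raw counts per gene. The library kit does not mark strand, so antisense pairs cannot be separated. The authors mapped ATAC-seq reads to mm10 with Bowtie2, called peaks with MACS2 and deposited raw counts per peak. The deposited tables of log2 CPM, sorted-nuclei counts and CUT&RUN lists were not used. RNA of whole arcuate nucleus was not analysed here.

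Counts were fitted in R 4.3.3 with edgeR 4.0.16 (quasi-likelihood, TMM, features with a mean over 1 CPM, state as the factor). The standard errors are those implied by the F statistic. Printed CPM values are TMM-scaled over all RNA libraries or, for peaks, the ATAC-seq libraries. Depth was 25581041 to 54511107 counts per RNA library, and intervals cover the spread between libraries. Each sample is a pool of mice, and p-values measure the spread between pools. Start sites came from the RefSeq annotation of GRCm38.p6, and promoter sequences, found for 68 genes, from a RefSeq table of the same build. The fits were tested on simulated data. Of the called peaks, 1 opened peak enters the counts of calls and is not reported here.

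Whether library numbers pair the states was checked on deviations from group means. Same-numbered AgRP libraries correlated at 0.588 to 0.852 (10 pairs), and the POMC pairs, which mirror each other, at 0.778 to 0.810, so a block by number was fitted as an alternative. In ATAC-seq the same-numbered values were -0.00861 to 0.193. With 2 libraries per state these also mirror each other, so they show no clear pairing but cannot settle whether there is one. Alternatives were DESeq2 1.42.0, scaling by library size, no filter, the block, leaving out each library, and, chosen after seeing the data, leaving out the libraries of high Slc1a2 share. Genes were named mainly from a rule. It took those called in any comparison and up to 10 per AgRP comparison at an unadjusted p under 0.05. It also took the extremes of each role, non-overlapping ones and those below the filter. Not every gene that met the rule is named here, and some are named without values.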

Additional observations from a re-analysis of the deposited data

Results flagged for a closer look

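Of 50 groups of 4 AgRP libraries examined, for 25 genes, 2 held a library far from the other 3 by Dixon's test, which flags about 1 group in 20 by chance. Kdm6b was at 107 CPM in AgRP fasted number 4 and at 41.9 to 44.0 CPM in the other fasted libraries. Smarca5-ps was at 2.57 CPM in AgRP fasted number 1 and at 1.46 to 1.63 CPM in the others.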

How the results depend on the processing

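Of 128 recomputed counts of called genes or peaks, 108 stayed within 1.5 times the main value. Of 731 recomputed values of single genes or peaks, 666 kept their side of the threshold, 57 lost a call, 8 gained one and 0 reversed. The 731 include many values of genes not called in the main fit, which had no call to lose, so the 57 all came from called genes or peaks. Between AgRP states, the call of Hdac6 was kept in 4 of 12 alternatives and that of Chd7 in 12 of 12. Those of Setdb2-phf11c.2 were kept in 12 of 12 for fasted against fed and 13 of 13 for leptin against fasted. In fasted against fed AgRP neurons 2 genes were called with the replicate block in place of 1. In leptin against fed, 1 was called with scaling by library size, 1 with no filter, 4 with the replicate block and 4 without the high-Slc1a2 libraries, in place of 2. In fed AgRP against POMC neurons DESeq2 called 2 and leaving out the high-Slc1a2 libraries 1, in place of 0. The block changed no other RNA call count, and gave 17 called peaks in place of 15 for fasting. Leaving out each library gave 1 to 2 genes for fasted against fed, 1 to 2 for leptin against fed, 2 to 6 for AgRP against POMC over the 3 states, and 0 to 1 peaks for leptin against fasted. Where this left 1 library in a group, it was assumed to vary like the other groups. The POMC comparisons of states could not be fitted without the high-Slc1a2 libraries, which leaves 1 library per state. The cause of these changes was not tested. Groups of 2 libraries limit the POMC and ATAC-seq comparisons.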
